A study of Homo sapiens with 6 samples.

Results

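The genes described here are 10 members of the integrated stress response and the unfolded protein response: ATF4, DDIT3, ASNS, TRIB3, CHAC1, DDIT4, SESN2, HERPUD1, HSPA5 and XBP1. They were chosen by name, with earlier results of these data known. Each symbol matched a single Ensembl gene ID, and the members are 10 of the 60499 genes in the deposited tables. All 10 had enough counts to be tested, among 17608 genes tested in all. The cells were H1, an established human embryonic stem cell line. They were kept for 4 days in Nutristem, a stem cell medium that was renewed daily. The wells were coated with recombinant laminin-521 alone (LN-521) or with laminin-521 together with laminin-221 (LN-521+LN-221), with 3 wells per coating. Laminins are the basement membrane proteins on which these cells attach. The comparison asks whether RNA levels of the stress genes differed between the coatings. All wells held the same line, so p-values measure the spread between wells of H1 and not between lines.

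In the integrated stress response, the kinases encoded by EIF2AK1 to EIF2AK4 phosphorylate the translation factor eIF2 when cells meet haem shortage, double-stranded RNA, misfolded protein in the endoplasmic reticulum (ER) or amino acid shortage. General translation falls, while translation of ATF4 rises through upstream reading frames in its mRNA. The ATF4 protein then binds the promoters of amino acid, redox and cell death genes. The unfolded protein response shares the kinase of EIF2AK3 (PERK) and adds 2 further ER sensors, IRE1 (ERN1), which splices XBP1 mRNA, and ATF6, which is cut and moves to the nucleus. Gene-level RNA counts show neither ATF4 translation nor XBP1 splicing, and they report the arms through the mRNA of their targets.

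Short promoter elements through which the arms act were searched for, and the members that hold one are shown with it. Sequences are from RefSeq (GRCh38.p14), whose table held a window for all 10 members (16 windows, as some genes have several starts). In the 250 bases before each start, 4 elements were searched on both strands: the ER stress response element ERSE (CCAAT and CCACG with 9 bases of any kind between), ERSE-II (ATTGG and CCACG with 1 base of any kind between), the C/EBP-ATF response element CARE bound by ATF4 (TGATGNAA) and the XBP1 element UPRE (TGACGTGG). In the members no occurrence overlapped another. At least 1 element was found for 5 members, written below 5′ to 3′ on the gene's strand with the element in capitals. ERSE was in the windows of HSPA5 and XBP1, and in 0.0740% of all 35116 promoter windows. HERPUD1 held ERSE-II, found in 0.0513% of windows, and a CARE on the opposite strand. ASNS held a CARE on its own strand and CHAC1 held one on the opposite strand, which therefore reads as the reverse complement in the capitals of HERPUD1 and CHAC1. CARE was found in 3.14% of windows, and no member held UPRE, found in 0.612%. For ASNS and CHAC1 the element lies inside an exon of an annotated transcript, and only 30 bases are shown. The stretch of HSPA5 is the whole window, while those of XBP1 (222 bases, from 250 to 29 before the start) and HERPUD1 (156 bases, from 250 to 95) are limited to the part outside annotated exons.
HSPA5 (chr9:125241344-125241593, minus strand): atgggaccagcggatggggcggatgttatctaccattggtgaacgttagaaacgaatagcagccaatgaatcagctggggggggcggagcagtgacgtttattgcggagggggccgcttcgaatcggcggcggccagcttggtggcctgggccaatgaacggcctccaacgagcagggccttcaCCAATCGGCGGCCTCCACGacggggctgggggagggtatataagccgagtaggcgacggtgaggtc
XBP1 (chr22:28800598-28800819, minus strand): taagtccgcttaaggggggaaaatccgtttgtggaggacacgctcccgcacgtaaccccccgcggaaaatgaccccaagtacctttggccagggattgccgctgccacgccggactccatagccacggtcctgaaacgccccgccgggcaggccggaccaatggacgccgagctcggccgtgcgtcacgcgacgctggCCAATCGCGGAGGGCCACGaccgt
HERPUD1 (chr16:56931892-56932047, plus strand): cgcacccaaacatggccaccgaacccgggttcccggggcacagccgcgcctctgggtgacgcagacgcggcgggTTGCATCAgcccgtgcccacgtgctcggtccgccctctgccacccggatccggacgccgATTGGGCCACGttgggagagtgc
ASNS (chr7:97872458-97872487, minus strand): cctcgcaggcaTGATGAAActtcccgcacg
CHAC1 (chr15:40953251-40953280, plus strand): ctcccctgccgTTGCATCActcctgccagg
A match of letters is a description of the sequence and not a measured binding site. None of these 5 genes passed the test between the coatings.

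Total counts ranged from 20606450 to 26836686 per library. LN-521 replicate 1 stood apart on the second principal component, at 31.1 against -16.0 to 3.96 for the other libraries, and results that turn without it are given with that value. Pluripotency markers were present on both coatings. The summed level of POU5F1, NANOG, SOX2, LIN28A, DPPA4 and TDGF1 was 5929 to 6113 CPM on LN-521 (CPM are counts per 1000000 of the TMM-scaled library size) and 5955 to 6037 CPM on LN-521+LN-221. The similar sums held changes in both directions, as 4 of these 6 genes passed the edgeR test, against 2.53% of all genes tested. NANOG (97.3 to 118 CPM against 57.0 to 72.8), TDGF1 (497 to 571 against 317 to 357) and POU5F1 (1068 to 1302 against 927 to 975) were lower on LN-521+LN-221, and LIN28A (2635 to 2745 against 3124 to 3224) was higher. The part of these changes in the results on the stress genes was not tested. All 6 mesendoderm markers, including TBXT and SOX17, stayed under 1 CPM in every well. The neuroectoderm list held 592.9 to 654 CPM on LN-521 and 615 to 678 CPM on LN-521+LN-221, nearly all from NES and TUBB3, while PAX6, SOX1 and NEUROG2 were under 1 CPM. The stromal list held 341 to 409.9 CPM and 366 to 375 CPM, from COL1A1, COL1A2 and PDGFRB. LUM had 0 counts in all wells, which allows up to 0.144 CPM in the shallowest library. In bulk RNA, a change in the share of a cell type and a change in RNA per cell cannot be told apart.

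None of the 10 members passed an adjusted p of 0.05 between the coatings (0 of 10, edgeR quasi-likelihood test, Benjamini-Hochberg over 17608 genes). Among all genes tested, 2.53% passed, so the count of 0 is near the background. At an unadjusted p under 0.05 there was 1 member, TRIB3, against 14.5% of all genes. DESeq2 also gave 0 calls with TRIB3 alone under the unadjusted threshold. On the authors' TPM values, a length-corrected level with the same total in every library, limma gave 0 calls among 9 members tested, and HERPUD1 alone was under the unadjusted threshold. The median log2 fold change of the members was -0.06, with 7 below 0 and 3 above, beside a median of -0.0011 over all genes.

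**Figure D1:**
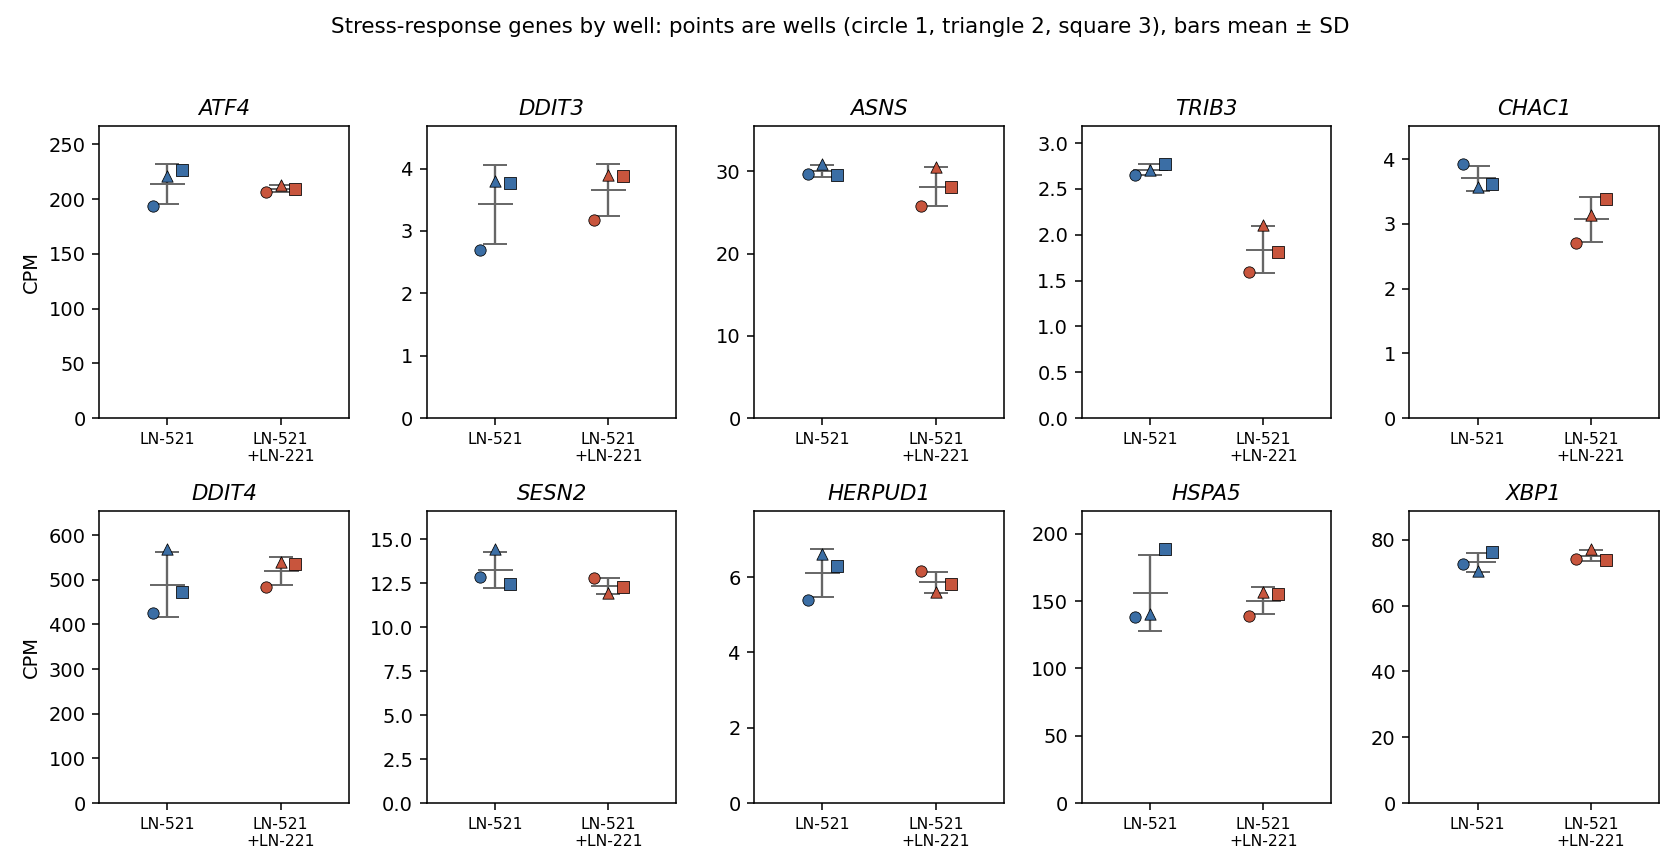
Level of each member in CPM on a linear axis that starts at 0, by coating; points are the 3 wells of each coating (circle, triangle and square for replicates 1, 2 and 3) and bars are mean ± SD. TRIB3 and CHAC1 are the panels in which the wells of the coatings do not overlap.

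The members covered a wide range of levels. By TPM, averaged over the 6 wells, the order was DDIT4 (257), ATF4 (130.0), XBP1 (35.6), HSPA5 (32.7), ASNS (13.5), HERPUD1 (4.10), DDIT3 (3.65), SESN2 (3.12), CHAC1 (2.06) and TRIB3 (0.84). Neighbours whose wells overlapped in TPM were XBP1 and HSPA5, HERPUD1 and DDIT3, and DDIT3 and SESN2. Against all genes tested, mean TPM placed DDIT4 at the percentile 98.4 and ATF4 at 96.9. HSPA5 stood at 86.3, DDIT3 at 39.9 and TRIB3 at 17.5. RNAs of the 7SL family took 30.1% to 37.3% of all TPM, a share within the fixed total of TPM in each library.

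ATF4 (ENSG00000128272, GRCh38 chr22:39519695-39522685) encodes the transcription factor at the centre of the integrated stress response. On LN-521 it stood at 193, 221 and 227 CPM in replicates 1, 2 and 3, and on LN-521+LN-221 at 206, 212 and 209 CPM. The wells on the mixed coating lay inside the range of those on LN-521, whose lower end was LN-521 replicate 1. The other LN-521 wells, at 221 and 227 CPM, lay above all wells of the mixed coating. Without LN-521 replicate 1 the log2 fold change of ATF4 was -0.10 (edgeR adjusted p = 0.23). In that fit ATF4 and TRIB3 were the members with an unadjusted edgeR p under 0.05. Over all wells the change was smaller. The log2 fold change was -0.03 ± 0.06 (SE; edgeR adjusted p = 0.871), with a 95% interval of the ratio from 0.896 to 1.07. The estimated counts of ATF4 were not whole numbers in 6 libraries, as happens where reads are shared between genes.

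DDIT3 (ENSG00000175197, chr12:57516588-57521737, minus strand) encodes CHOP, a transcription factor that ATF4 induces under lasting stress. It had 62, 101 and 94 counts on LN-521, against 66, 87 and 92 counts on LN-521+LN-221, or 2.70, 3.80 and 3.77 CPM and 3.18, 3.90 and 3.89 CPM. Replicate 1 was the lowest well on each coating, and the groups overlapped. The log2 fold change was 0.09 ± 0.18 (SE; edgeR adjusted p = 0.865) and the interval of the ratio was 0.823 to 1.38. Counting alone gives a coefficient of variation of 10.9% at its mean count. DDIT3 shares exon positions with MARS1 and MBD6 on the other strand and with ENSG00000285133 on its own. MARS1, a tRNA synthetase gene of higher level, had a mean of 120.4 ± 6.22 CPM on LN-521 (SD, n = 3) and of 106.6 ± 2.67 CPM (SD, n = 3) with laminin-221 added. Whether the counting used strand is not given in the sources used here.

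ASNS, TRIB3 and CHAC1 are targets of ATF4 in amino acid supply, feedback and redox control. ASNS (ENSG00000070669, chr7:97852118-97872542, minus strand), which makes asparagine, stood at 29.7, 30.9 and 29.6 CPM on LN-521, against 25.8, 30.5 and 28.1 CPM on LN-521+LN-221. The lowest wells were on the mixed coating, but replicate 2 there lay within the LN-521 range. The log2 fold change was -0.09 ± 0.08 (SE; edgeR adjusted p = 0.642), a ratio between 0.835 and 1.05. ENSG00000284707 overlaps exons of ASNS on the same strand.

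TRIB3 (ENSG00000101255, chr20:362835-397559) encodes a pseudokinase that binds ATF4 and dampens its activity. It had 61, 72 and 69 counts on LN-521, against 33, 47 and 43 counts on LN-521+LN-221, or 2.66, 2.71 and 2.77 CPM against 1.59, 2.11 and 1.82 CPM. All wells of the mixed coating lay below all wells of LN-521, in CPM and in TPM. Its log2 fold change was -0.56 ± 0.19 (SE; edgeR unadjusted p = 0.0104, adjusted p = 0.169), with a ratio between 0.512 and 0.902. The difference did not pass the adjusted threshold, and the adjusted p over the alternatives ranged from 0.132 to 0.541. At a mean of 54.2 counts, counting alone gives a coefficient of variation of 13.6%.

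CHAC1 (ENSG00000128965, chr15:40952962-40956519) encodes an enzyme that breaks down glutathione and is induced through ATF4. It had 90, 95 and 90 counts on LN-521, against 56, 70 and 80 counts on LN-521+LN-221, or 3.92, 3.57 and 3.61 CPM against 2.70, 3.14 and 3.38 CPM. The CPM values did not overlap, while the TPM values did. The log2 ratio was -0.26 ± 0.16 (SE; edgeR adjusted p = 0.506), a ratio between 0.655 and 1.06. TRIB3 and CHAC1 were the 2 of 10 members without overlap in CPM, against 19.9% of all genes tested, and 9.68% of all genes were without overlap and lower on LN-521+LN-221.

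DDIT4 and SESN2 restrain the growth kinase complex mTORC1 and are induced by ATF4 as well as by other stress factors. DDIT4 (ENSG00000168209, chr10:72273920-72276036), also called REDD1, had the highest level of the members. It stood at 425, 568 and 473 CPM on LN-521, against 484, 539 and 535 CPM on LN-521+LN-221. The lowest and the highest well were both on LN-521. The log2 ratio was 0.09 ± 0.09 (SE; edgeR adjusted p = 0.742), a ratio between 0.919 and 1.23. With correction for GC content together with the replicate block it was 0.15 and passed (edgeR adjusted p = 0.00988), against 0.0503 to 0.99 over the other alternatives. The antisense gene DDIT4-AS1 overlaps DDIT4.

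SESN2 (ENSG00000130766, chr1:28259527-28282491) encodes sestrin 2, a leucine-binding inhibitor of mTORC1. It stood at 12.9, 14.4 and 12.5 CPM on LN-521, against 12.8, 11.9 and 12.3 CPM on LN-521+LN-221, with overlap. Its log2 fold change was -0.10 ± 0.10 (SE; edgeR adjusted p = 0.685), a ratio between 0.807 and 1.07.

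HSPA5, HERPUD1 and XBP1 report the ER arms. HSPA5 (ENSG00000044574, chr9:125234853-125241330, minus strand) encodes BiP, the main ER chaperone, whose promoter carries the ERSE printed above. It stood at 138.2, 140.7 and 188 CPM on LN-521, against 138.7, 156 and 156 CPM on LN-521+LN-221. A single well, LN-521 replicate 3, was above the others, and without it the log2 fold change turned from -0.05 ± 0.12 (SE; edgeR adjusted p = 0.897) to 0.11 (edgeR adjusted p = 0.631). The interval of the ratio over all wells was 0.792 to 1.18. Its estimated counts were not whole in 5 libraries.

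XBP1 (ENSG00000100219, chr22:28794555-28800597, minus strand) encodes the transcription factor whose mRNA IRE1 splices. It stood at 72.7, 70.5 and 76.2 CPM on LN-521, against 74.3, 77.1 and 74.0 CPM on LN-521+LN-221. The coatings overlapped, and the log2 fold change was 0.04 ± 0.06 (SE; edgeR adjusted p = 0.825), a ratio between 0.942 and 1.12. Together with ATF4, this was the narrowest interval among the members.

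HERPUD1 (ENSG00000051108, chr16:56932048-56944863) encodes an ER membrane protein of ER-associated degradation, and its promoter carries both an ERSE-II and a CARE. In CPM the wells overlapped, at 5.40, 6.62 and 6.30 on LN-521, against 6.16, 5.61 and 5.83 on LN-521+LN-221. In the test the log2 fold change was -0.06 ± 0.13 (SE; edgeR adjusted p = 0.883), a ratio between 0.790 and 1.16. The authors' TPM values did not overlap, at 4.07, 4.80 and 5.13 TPM on LN-521, against 3.27, 3.73 and 3.60 TPM on LN-521+LN-221. On the log2(TPM + 1) scale the difference was -0.32 (limma adjusted p = 0.422), which did not pass. TPM without overlap was seen in 2 of 10 members, TRIB3 and HERPUD1, and in 12.8% of all genes tested.

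The deposited tables therefore gave different pictures of HERPUD1. The estimated count per TPM, divided by its median over genes in each library, moves with the effective length by which TPM is divided. Set to a mean of 1 on LN-521, it was 1.11, 0.973 and 0.919 there and 1.55, 1.17 and 1.22 on LN-521+LN-221, higher by 31.2% with no overlap. Among 14670 genes at 0.5 TPM or more in every well, 8.26% had no overlap in this ratio and 1.06% differed at least as much as HERPUD1 in either direction. LN-521+LN-221 replicate 1 was the highest well, and without it the ratio was higher by 19.5% and 4.43% of genes differed at least as much. That share was 1.72% without LN-521 replicate 2 and 2.42% without LN-521 replicate 3, where the ratio was higher by 29.4% and 26.1%. These values without a well were chosen after seeing the data. In the other 9 members the mean ratio differed by -0.863% to 3.79%. Genes outside the members also differed, such as ERN1, higher by 27.2% with overlap, and DNAJB9, at -13.0% without overlap. At the mean count of HERPUD1, counting alone gives a coefficient of variation of 8.41%. HERPUD1 was singled out after its values were seen, and which transcripts carried the reads was not tested.

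**Figure D2:**
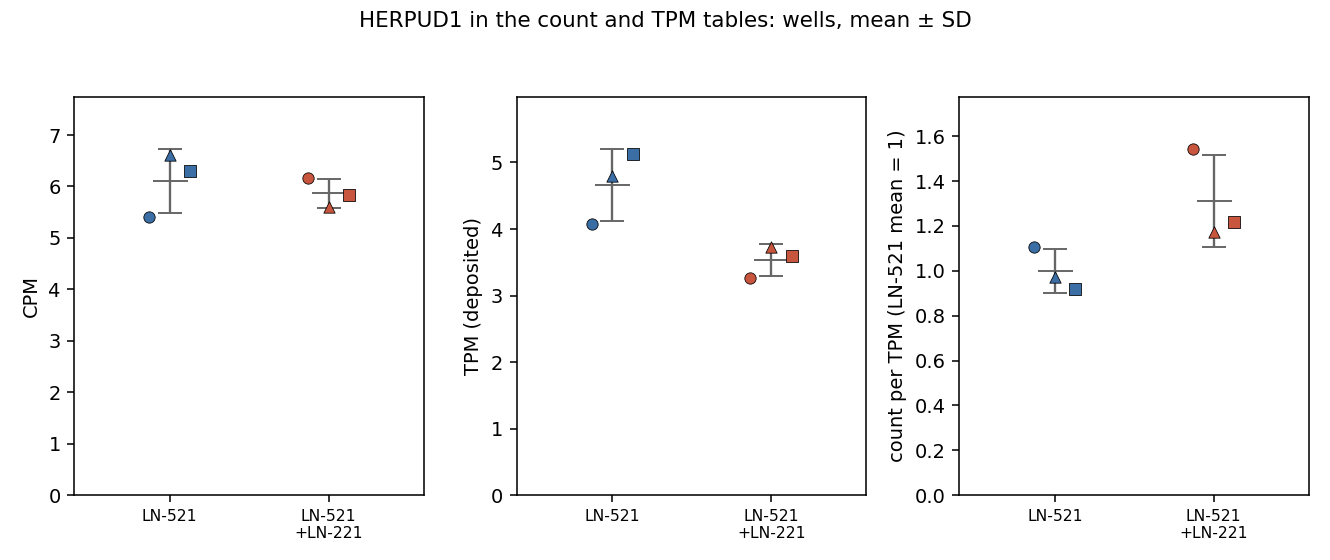
HERPUD1 by coating in CPM, in the authors' TPM and as estimated count per TPM (LN-521 mean set to 1), each on a linear axis from 0; points are wells (circle, triangle and square for replicates 1, 2 and 3) and bars mean ± SD. The wells overlap in CPM, are lower on LN-521+LN-221 in TPM and are higher there in count per TPM.

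The wells themselves differed. LN-521 replicate 1 was the lowest of the 6 wells for 5 members, ATF4, DDIT3, DDIT4, HERPUD1 and HSPA5, and the highest for CHAC1. LN-521+LN-221 replicate 1 was the lowest for ASNS, TRIB3 and CHAC1. The SD in CPM was larger on LN-521 for 7 of 10 members. Without LN-521 replicate 1 the log2 fold change of DDIT3 was -0.05 and that of DDIT4 was -0.0027, both on the other side of 0. Leaving out any single well left 0 members past the threshold. The 95% interval of the log2 fold change included 0 for 9 members, and for 8 it lay within a 1.5-fold change in either direction. TRIB3 and CHAC1 were the exceptions, and a drop of more than 1.5-fold lay inside their intervals.

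**Figure D3:**
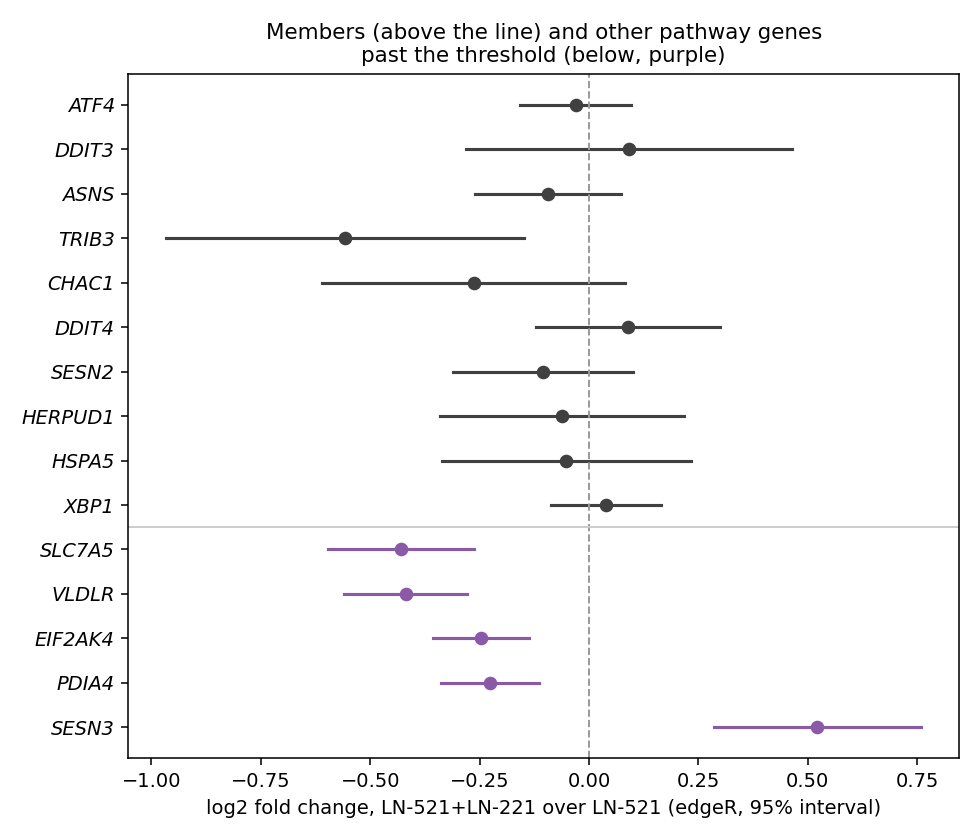
Log2 fold change of LN-521+LN-221 over LN-521 with 95% intervals (edgeR) for the 10 members, above the line, and for the 5 other pathway genes with an adjusted p under 0.05, below it in purple. Among the members, the interval of TRIB3 alone leaves out 0, and TRIB3 did not pass after adjustment over all genes.

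The other genes of these pathways were taken from 11 lists, chosen with earlier results of these data known. Their counts beside the shares of all genes are therefore a description and no independent test. The lists held 126 genes, of which 123 were tested. Of these, 5 passed the threshold (edgeR adjusted p under 0.05), 1 higher and 4 lower on LN-521+LN-221, against 2.53% of all genes in either direction, 1.4% higher and 1.14% lower. The median log2 fold change over the 123 genes was -0.03. At an unadjusted p under 0.05 there were 18 of 123, against 14.5% of all genes. Among them were 4 of 9 amino acid transporters, 4 of 16 ER chaperones and 2 of 13 further stress targets. The eIF2 list had 1 of 12 and the sestrin and REDD family 1 of 4. Counts of such genes in the other lists are given below and stand beside the same share. CPM did not overlap for 34 of 123, 10 higher and 24 lower, against 19.9% of all genes in either direction. Of the 17608 genes tested, 1798 were higher without overlap and 1705 (9.68%) were lower. By list the 34 genes were 5 of 9 amino acid transporters, 6 of 16 ER chaperones, 5 of 13 tRNA synthetases and 4 of 13 further stress targets. They also held 3 of 12 genes of the eIF2 list and 3 of 12 of amino acid synthesis. There were 1 of 4 in the sestrin and REDD family, 2 of 9 ER sensors, 1 of 7 partner factors, and 2 of 14 each in ER-associated degradation and the heat shock list. DESeq2 called 7, these 5 with KLHL24 and SLC1A5, and limma on TPM called 0 of them. Without LN-521 replicate 1 there were 13 calls and without LN-521 replicate 3 there were 3. Without LN-521+LN-221 replicate 1, 2 or 3 there were 3, 2 and 1.

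Among the eIF2 kinases, phosphatases and eIF2B subunits, 1 of 12 passed. This was EIF2AK4 (ENSG00000128829), which encodes GCN2, the kinase that senses uncharged tRNA. It fell from 209.9, 205 and 206 CPM to 179.7, 175 and 168 CPM, with no overlap. The log2 ratio was -0.25 ± 0.05 (SE; edgeR adjusted p = 0.0124), a ratio between 0.782 and 0.909. It lost the threshold without LN-521 replicate 3 (edgeR adjusted p = 0.0681), LN-521+LN-221 replicate 2 (0.106) or LN-521+LN-221 replicate 3 (0.128), within a range over all alternatives of 9.2e-06 to 0.832. The other kinases did not pass, with EIF2AK1 (the haem-regulated kinase) at -0.0063, EIF2AK2 (PKR) at -0.0049 and EIF2AK3 (PERK) at 0.00033 on the log2 scale. By TPM over the 6 wells EIF2AK4 was the highest of the kinases, at 31.2, against 19.1 for EIF2AK1, 18.6 for EIF2AK3 and 14.4 for EIF2AK2. PPP1R15A encodes GADD34, which directs removal of that phosphate, and was at 0.0092.

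Among amino acid transporters of the ATF4 programme, 1 of 9 tested passed. SLC7A5 (ENSG00000103257), the large neutral amino acid transporter LAT1, fell from 27.3, 27.7 and 25.7 CPM to 20.85, 20.05 and 19.05 CPM. Its log2 fold change was -0.43 ± 0.08 (SE; edgeR adjusted p = 0.00494), a ratio between 0.661 and 0.834. Without LN-521+LN-221 replicate 3 its adjusted p was 0.0579. Its estimated counts were not whole in 6 libraries. The list's median log2 fold change was -0.15, and 5 of 9 genes were lower without overlap, against 9.68% of all genes. The others of these 5, named after their values were seen, were SLC7A1 (-0.27, edgeR adjusted p = 0.0717), SLC7A3 (-0.20, adjusted p = 0.165), SLC1A5 (-0.22, adjusted p = 0.0766) and SLC43A1 (-0.15, adjusted p = 0.509), which carry basic, neutral or branched-chain amino acids. SLC7A11, the cystine importer, was at 0.20.

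The amino acid synthesis and one-carbon list had 0 of 12 genes past the threshold, with 1 gene (ALDH1L2) at an unadjusted edgeR p under 0.05 and 0 calls by DESeq2 among them. All 12 fold changes were below 0, from -0.35 to -0.0036, with a median of -0.08. Of all genes tested, 50.3% were below 0. The 13 aminoacyl-tRNA synthetase and tRNA export genes had 0 calls by edgeR and by DESeq2, 1 gene (MARS1) at an unadjusted p under 0.05 and a median of 0.01. Without overlap were 5 of the 13, against 19.9% of all genes: IARS1, LARS1, NARS1 and WARS1 higher (0.05, 0.07, 0.08 and 0.12 on the log2 scale) and MARS1 lower (-0.18). Those 5 were named after their values were seen. Of 7 partner transcription factors tested, including ATF3, CEBPB and CEBPG, 0 passed by either tool, and ATF5 alone had an unadjusted p under 0.05.

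Of 13 further stress-induced targets tested, 1 passed. VLDLR (ENSG00000147852), a lipoprotein receptor gene induced by ER stress, fell from 87.6, 79.4 and 86.1 CPM to 66.8, 63.9 and 58.6 CPM. The log2 ratio was -0.42 ± 0.07 (SE; edgeR adjusted p = 0.00129), a ratio between 0.679 and 0.824. It passed in each fit that left out a library, with edgeR adjusted p between 8.47e-05 and 0.0193, and not with limma on TPM, where it was 0.503 to 0.665. VLDLR-AS1 overlaps it on the other strand. GDF15, a secreted stress marker, stood under 1 CPM in every well, and FGF21 had too few counts to be tested.

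In the sestrin and REDD family, SESN3 (ENSG00000149212) rose while SESN2 did not pass. SESN3 encodes sestrin 3, and stood at 722, 556 and 535 CPM on LN-521, against 888, 863 and 851 CPM on LN-521+LN-221. Its log2 fold change was 0.52 ± 0.10 (SE; edgeR adjusted p = 0.0393), a ratio between 1.22 and 1.69. It lost the threshold without LN-521 replicate 2 (edgeR adjusted p = 0.229) and without LN-521+LN-221 replicate 1 (0.101), 2 (0.0798) or 3 (0.155). It also lost it with library size alone (0.0756) and with the GC correction (0.076). By TPM SESN3 was the highest sestrin, at 65.3 over the 6 wells, against 8.72 for SESN1 and 3.12 for SESN2. SESN1 was at -0.0062, and the difference between the sestrins' changes was not tested.

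Among the ER genes, 1 of 16 chaperones and folding enzymes passed. PDIA4 (ENSG00000155660), a protein disulfide isomerase of the ER, fell from 285, 305 and 318 CPM to 259.6, 258.7 and 258 CPM. The log2 ratio was -0.23 ± 0.05 (SE; edgeR adjusted p = 0.0277), a ratio between 0.790 and 0.924. It lost the threshold in 4 of the 6 fits that left out a library, where the adjusted p was between 0.128 and 0.201. The list's median was -0.11, with 14 of 16 genes below 0, against 50.3% of all genes. Without overlap, 5 were lower, against 9.68% of all genes, and 1 was higher, DNAJB9 (0.17, edgeR adjusted p = 0.424), a co-chaperone of BiP. Besides PDIA4 the 5 lower genes, named after their values were seen, were HSP90B1 (-0.16, edgeR adjusted p = 0.148), CALR (-0.11, adjusted p = 0.322), PDIA6 (-0.10, adjusted p = 0.331) and FKBP2 (-0.12, adjusted p = 0.569). HSP90B1 encodes GRP94 and CALR calreticulin, ER chaperones that act beside BiP. Of 9 ER sensors and their factors 0 passed by edgeR or DESeq2, with 0 at an unadjusted edgeR p under 0.05. ERN1 was at -0.05 and ATF6 at -0.11. Of 14 genes of ER-associated degradation 0 passed by either tool, with DERL3 alone under the unadjusted threshold. HERPUD2, the paralogue of HERPUD1, was at 0.04.

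The 14 cytosolic and mitochondrial heat shock genes, which answer to the separate heat shock and mitochondrial responses, had 0 calls by edgeR and by DESeq2. At an unadjusted p under 0.05 there were 2 of 14, against 14.5% of all genes, HSP90AA1 and HSPA1B, the latter a near-identical copy of HSPA1A between which reads may be split. Their median log2 fold change was -0.0039, with 7 genes above 0 and 7 below.

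**Figure D4:**
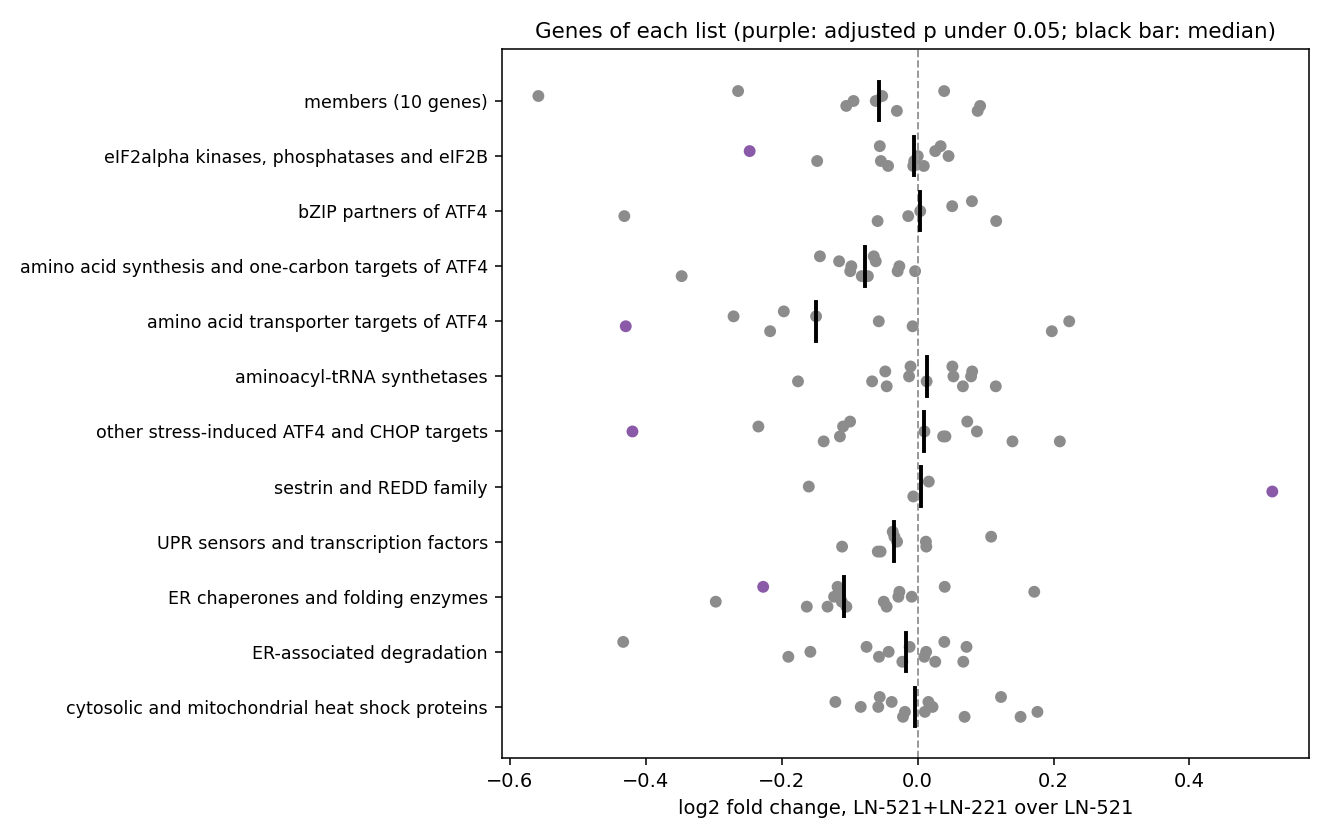
Log2 fold change of LN-521+LN-221 over LN-521 for every tested gene of the members and of the 11 pathway lists; each point is a gene, purple points have an edgeR adjusted p under 0.05, and the black bar is the list's median. The amino acid transporters (median -0.15) and ER chaperones (median -0.11) lie furthest left of the lists, and the member list has a median of -0.06.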

How the data were processed

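RNA from 6 wells of H1 cells was sequenced as stranded total RNA libraries with paired reads of 150 bases, per the labels' protocols. The submitters' processing notes name cutadapt, STAR 2.5.2b, RSEM 1.2.31 and hg38. The annotation, and whether counting used strand, are not given in the sources used here. The authors deposited estimated counts, of which 6.08% to 6.67% per library are not whole, and TPM. Estimated counts were rounded to whole numbers. Positions are from GENCODE 29 (GRCh38), which held 93.8% of the gene IDs, and 68.0% of IDs had a symbol.

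Genes passing edgeR's expression filter (minimum count 10) were tested with edgeR 4.0.16 (quasi-likelihood, trimmed mean of M-values scaling, Benjamini-Hochberg adjustment, threshold 0.05) in R 4.3.3. CPM are rounded counts over scaled library sizes. Standard errors and 95% intervals come from that fit. DESeq2 1.42.0 and limma 3.58.1 on log2(TPM + 1), with genes at 1 TPM in 3 libraries, were alternatives, beside other scalings and filters, a GC correction (lowess, values for 99.2% of genes), the replicate block and leaving out each library. The main edgeR fit alone was run on simulated counts, drawn with the dispersions edgeR estimated from these data. The alternatives were not tested in this way. Counting variation covers counting error only.

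The members and the lists were chosen with earlier results of these data known. All 10 members were named, and of the pathway lists the genes past the threshold whose CPM did not overlap between the coatings. Other pathway genes were named for their role or after their values were seen.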

Additional observations from a re-analysis of the deposited data

How the results depend on the processing

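The count of genes differing between the coatings was 446 and moved to 725 at an adjusted p under 0.1, 718 without the filter (46.8% higher, against 55.2%), 952 with GC correction, 1168 with GC correction and replicate block, 33 with limma on log2(TPM + 1) (81.8% higher), 16 on log2(TPM + 0.1) and 1 unfiltered. Leaving out a library gave 194 to 1179. The replicate block gave 646 genes, 442 of them among the 446, with 0 members and 6 pathway genes. Over all genes tested, the deviations of same-numbered wells from their coating means had r = 0.05, -0.02 and 0.01. Whether same-numbered wells shared a batch or handling was not tested, and these values cannot decide it. The count of members was 0 in all alternatives except GC correction and replicate block, where it was 1 (DDIT4). The count of 5 pathway genes moved to 8 at an adjusted p under 0.1, 10 with GC correction, 12 with GC correction and replicate block, and 0, 0 and 0 in the limma fits on TPM. Leaving out a library gave 1 to 13. The cause of these shifts was not tested.

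Fold changes that changed sign were all small. On TPM, ATF4 was at 0.02 in each of the 3 limma fits (0.0151, 0.0152 and 0.0151 on the log2 scale) and HSPA5 at 0.00029, 0.00067 and 0.00029. Over the fits without a library the log2 fold change ranged from -0.10 to 0.01 for ATF4 (0.0135 at the top), -0.0475 to 0.18 for DDIT3, -0.0027 to 0.21 for DDIT4, -0.14 to 0.0030 for HERPUD1 and -0.13 to 0.11 for HSPA5 (0.0037 without LN-521+LN-221 replicate 1). The counts of TRIB3, CHAC1 and DDIT3, 33 to 101 per library, limit their precision.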
